A study of Mus musculus with 9 samples.

Results

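Tissue inhibitors of metalloproteinases (TIMPs) and ADAMTS proteases were followed across 3 adenoviral conditions in mouse primary calvarial pre-osteoblasts. The members are Timp1, Timp2, Timp3, Timp4, Adamts1, Adamts2, Adamts4, Adamts5, Adamts9 and Adamts12, taken by gene symbol, which makes 10 of the 40213 symbols counted. The cells came from calvariae of wild-type 3-day-old ICR pups and were kept in osteogenic medium, which held β-Gp at 5 mM and L-AA at 50 μg/ml, under normoxia. On day 3 they received an adenovirus that was either the control (Ad-C, labelled WT) or overexpressed Hif1a (Ad-Hif1a) or Hif2a (Ad-Hif2a), and total RNA was taken on day 6. Each vector gave 3 libraries. The study counts n as separate experiments or mice, while the labels do not tie these libraries to particular cultures or pups. The p-values are therefore read for these libraries only. They rest on a spread that the test estimates over all 9 libraries with information shared between genes, not on the spread of a single gene alone.

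TIMPs are secreted proteins that block the catalytic site of matrix metalloproteinases and, to differing degrees, of ADAM and ADAMTS proteases. ADAMTS proteases are secreted zinc enzymes with thrombospondin repeats that process the matrix around cells: some cleave the large proteoglycans aggrecan and versican, and others trim procollagens. Bone matrix is laid down and remodelled by osteoblasts that secrete enzymes and inhibitors of both kinds. HIF-1α and HIF-2α, the latter encoded by Epas1, are oxygen-regulated transcription factors that recognise a short core, ACGTG or GCGTG, in DNA.

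Levels are given as CPM, counts scaled to a common library size by trimmed means (TMM). The 9 libraries held 14372589 to 18623403 counts, and 14413 genes had enough counts to be tested with edgeR. Hif1a stood at 186 to 193 CPM with Ad-C, 1240 to 2325 under Ad-Hif1a and 447 to 585 under Ad-Hif2a, and Epas1 at 41.9 to 48.8, 407 to 679 and 823 to 2181. Each vector raised the transcript it carries, and the transcript of the other factor was also higher with it than with Ad-C. The libraries Ad-Hif1a 1 and Ad-Hif2a 3 held the least of the carried transcript in their groups and the lowest mitochondrial shares, 2.95% and 2.82% of counts, against 3.69% to 5.77% in the other 4 libraries of these vectors. All 10 osteoblast markers were measured, led by Col1a1 and Spp1, while Bglap, which encodes osteocalcin, stood at 4.14 to 5.99 CPM in Ad-C.

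Of the 10 members, 9 passed the filter on low counts and were tested, and Timp4 was not. With Ad-Hif1a, 3 of these 9 rose against Ad-C at an adjusted p under 0.05 and none fell, where 11.3% of all tested genes were called (6.04% rose and 5.22% fell). With Ad-Hif2a, 2 members rose and 1 fell, where 15.6% of all tested genes were called (7.87% rose and 7.72% fell). Timp1 and Adamts4 rose with both vectors, Adamts1 was called with Ad-Hif1a and Timp3 with Ad-Hif2a. The median log2 change over the 9 tested members was 0.01 with Ad-Hif1a and -0.03 with Ad-Hif2a, and over all tested genes it was 0.01 in both comparisons. Both comparisons share the Ad-C libraries. The ranges of vector and control did not overlap in 7 of 9 members with Ad-Hif1a, beside 50.4% of all tested genes without overlap, and in 6 of 9 with Ad-Hif2a, beside 49.5%. An unadjusted p under 0.05 was reached by 5 of 9 members in either comparison, against 26.2% and 33.9% of all tested genes.

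The stretches before the starts of Timp1, Adamts1 and Timp3 are shown because these members rose or fell and because the HIF core can be read in them. They are the 250 bases before the annotated start, 5′ to 3′ on the gene's own strand, from RefSeq on build GRCm38.p6, an earlier build than the one named for the counts. Capitals mark every match to ACGTG or GCGTG on either strand. The windows lie at chrX:20869916-20870165 (plus strand) for Timp1, chr16:85803114-85803363 (minus strand) for Adamts1 and chr10:86300162-86300411 (plus strand) for Timp3.
Timp1: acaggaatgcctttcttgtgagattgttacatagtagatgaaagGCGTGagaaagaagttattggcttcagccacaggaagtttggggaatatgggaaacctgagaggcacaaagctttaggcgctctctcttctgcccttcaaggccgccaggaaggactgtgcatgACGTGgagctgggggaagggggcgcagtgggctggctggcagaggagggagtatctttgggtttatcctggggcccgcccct
Adamts1: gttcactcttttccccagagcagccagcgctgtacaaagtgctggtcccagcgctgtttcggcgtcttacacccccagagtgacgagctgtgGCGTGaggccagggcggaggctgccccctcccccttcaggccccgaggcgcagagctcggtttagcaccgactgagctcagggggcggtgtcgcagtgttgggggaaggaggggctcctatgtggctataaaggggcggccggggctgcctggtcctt
Timp3: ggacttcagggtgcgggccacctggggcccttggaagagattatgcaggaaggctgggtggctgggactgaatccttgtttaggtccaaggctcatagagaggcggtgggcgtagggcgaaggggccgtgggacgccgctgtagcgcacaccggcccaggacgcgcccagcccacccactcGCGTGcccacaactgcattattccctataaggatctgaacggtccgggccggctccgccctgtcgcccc
The Timp1 window held GCGTG 206 bases and ACGTG 82 bases before the start, counted to the first base of the core. Adamts1 held 1 GCGTG, 158 bases before its start, and Timp3 held 1 GCGTG, 69 bases before its start. Of the 8 members with a window in the table used, 6 held a match, namely these and Timp2, Adamts9 and Adamts12 with 1 GCGTG each. Adamts2 and Timp4 held none. Over all 32851 windows of this length, 38.6% held either core, 28.2% GCGTG and 16.6% ACGTG, and Timp1 was the only member with ACGTG. The GCGTG core was found in members that rose (Timp1, Adamts1), in a member that fell (Timp3) and in members that were not called (Timp2, Adamts9, Adamts12), and a match of 5 letters is a description of the window, not of binding.

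Timp1, which encodes a soluble inhibitor of most matrix metalloproteinases, stood at 554, 578 and 543 CPM in the 3 Ad-C libraries. It stood at 2722, 2288 and 1867 CPM with Ad-Hif1a and at 3131, 2137 and 4738 CPM with Ad-Hif2a. Every library of either Hif vector was above every Ad-C library, and the ranges of the Hif vectors overlapped each other. Timp1 rose 4.11-fold with Ad-Hif1a (log2 change 2.04, SE 0.30, adjusted p = 0.00652, edgeR quasi-likelihood test) and 5.82-fold with Ad-Hif2a (log2 change 2.54, SE 0.31, adjusted p = 0.00238). The Ad-Hif2a call held in all 18 alternative settings. The Ad-Hif1a call held in 15 of 18 and was lost without Ad-C replicate 1 (adjusted p = 0.0626), Ad-C replicate 3 (0.0585) or Ad-Hif1a replicate 2 (0.0558). Timp1 lies on the X chromosome inside Syn1, a neuronal gene on the opposite strand, and whether reads were counted by strand is not given in the sources used here. Syn1 stood at 3.48 to 4.87 CPM with Ad-C, 7.56 to 10.6 under Ad-Hif1a and 7.87 to 13.3 under Ad-Hif2a, far below Timp1 in the same libraries.

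Timp2, which encodes an inhibitor that also takes part in the activation of pro-MMP2 at the cell surface, was the most counted TIMP in Ad-C, at 3018, 2842 and 3039 CPM. It stood at 2171, 2068 and 2118 CPM with Ad-Hif1a and at 2060, 2123 and 2136 CPM with Ad-Hif2a. All 6 libraries of the Hif vectors were below all 3 of Ad-C, and the SDs within groups were 40.6 to 108 CPM. The log2 change was -0.49 (SE 0.15) in both comparisons and did not pass the threshold, with adjusted p = 0.0829 for Ad-Hif1a and 0.0632 for Ad-Hif2a by edgeR. This SE draws on a spread shared between genes and is not the scatter of the Timp2 levels alone. It passed in 5 of 18 alternative settings in each comparison, without a change of direction. Timp2 overlaps Cep295nl on the same strand, which stood at 6.95 to 11.2 CPM over the 9 libraries.

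Timp3, which encodes the TIMP that binds the matrix and inhibits several ADAM and ADAMTS proteases, stood at 281, 269 and 272 CPM with Ad-C. Its levels were 147, 159 and 175 CPM with Ad-Hif1a and 174, 185 and 115 CPM with Ad-Hif2a. Both Hif vectors lay wholly below Ad-C and overlapped each other, and Ad-Hif2a 3 was the lowest library. Timp3 fell with Ad-Hif2a by 0.81 on the log2 scale (SE 0.20, adjusted p = 0.0356, edgeR). With Ad-Hif1a the log2 change was -0.77 (SE 0.20) and the adjusted p of 0.0512 missed the threshold. The Ad-Hif2a call was lost in 6 of 18 settings, 5 of them leaving out Ad-C replicate 1, 2 or 3, Ad-Hif1a replicate 2 or Ad-Hif2a replicate 1, with adjusted p up to 0.178. Without Ad-Hif2a replicate 3 the log2 change was -0.59 and the call held. In the Ad-Hif1a comparison the threshold was passed in 7 of 18 settings. Timp3 lies inside Syn3 on the opposite strand, which stood at 0.793 to 4.31 CPM over the 9 libraries.

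Timp4, the fourth inhibitor, had 1 count in all, in Ad-Hif2a 2, and 0 counts in the other 8 libraries. A count of 0 allows up to 3 counts, or 0.161 to 0.209 CPM at these library totals, a limit that covers counting error only. No comparison between groups was made for it.

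**Figure D1:**
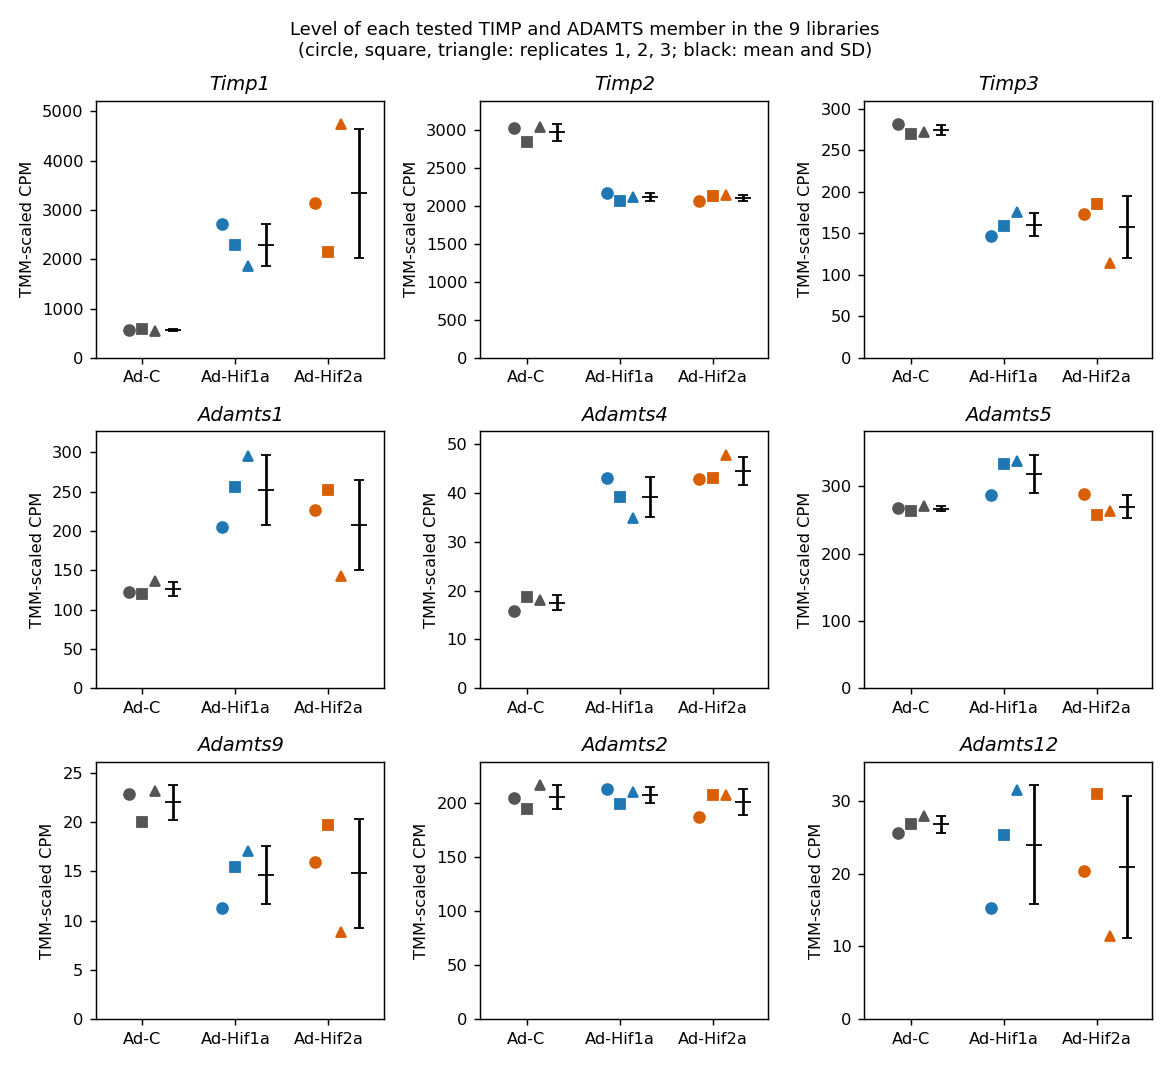
TMM-scaled CPM of the 9 tested members in each library, by vector, with the mean and SD of 3 libraries in black and each vertical axis starting at 0. Timp1, Adamts1 and Adamts4 were higher in all 6 libraries of the Hif vectors than in Ad-C. Timp2, Timp3 and Adamts9 were lower in all 6, and Adamts2 overlapped across the 3 vectors.

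Per kilobase of transcript, which allows genes to be compared, the order of the inhibitors changed between vectors. In Ad-C, Timp2 stood first with 800 ± 29.2 CPM per kilobase (SD, n = 3), then Timp1 with 632 ± 20.1 and Timp3 with 58.1 ± 1.32. With Ad-Hif1a, Timp1 stood first with 2596 ± 484 CPM per kilobase, Timp2 had 571 ± 13.9 and Timp3 had 34.0 ± 2.98. With Ad-Hif2a the values were 3777 ± 1486 for Timp1, 568 ± 11.0 for Timp2 and 33.4 ± 7.99 for Timp3. Neighbouring ranks did not overlap between libraries in any of the vectors.

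As a share of all TIMP transcripts, measured per kilobase, Timp1 made up 41.8%, 44.3% and 41.2% in the Ad-C libraries. The shares were 83.3%, 81.4% and 77.7% with Ad-Hif1a and 85.7%, 79.8% and 89.9% with Ad-Hif2a. On this scale Timp1 was below Timp2 in every Ad-C library and above it in every library of the Hif vectors. Timp2 made up 51.9% to 54.9% with Ad-C, 15.8% to 20.97% under Ad-Hif1a and 9.65% to 18.9% under Ad-Hif2a. Timp3 made up 3.86% to 3.97%, 0.842% to 1.36% and 0.407% to 1.29% in the same order. These shares are descriptions without a test. Without the length correction the mean share of Timp1 was 14.7% with Ad-C, 49.9% with Ad-Hif1a and 58.1% with Ad-Hif2a, higher again in each Hif library than in Ad-C. On that scale, however, Timp2 still had the larger share in Ad-Hif1a 3, with 50.9% against 44.9% for Timp1, and the shares were nearly level in Ad-Hif2a 2, with 47.8% against 48.1%. The summed level of the 4 TIMPs was 3689 to 3854 CPM with Ad-C, 4160 to 5040 under Ad-Hif1a and 4445 to 6988 under Ad-Hif2a.

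**Figure D2:**
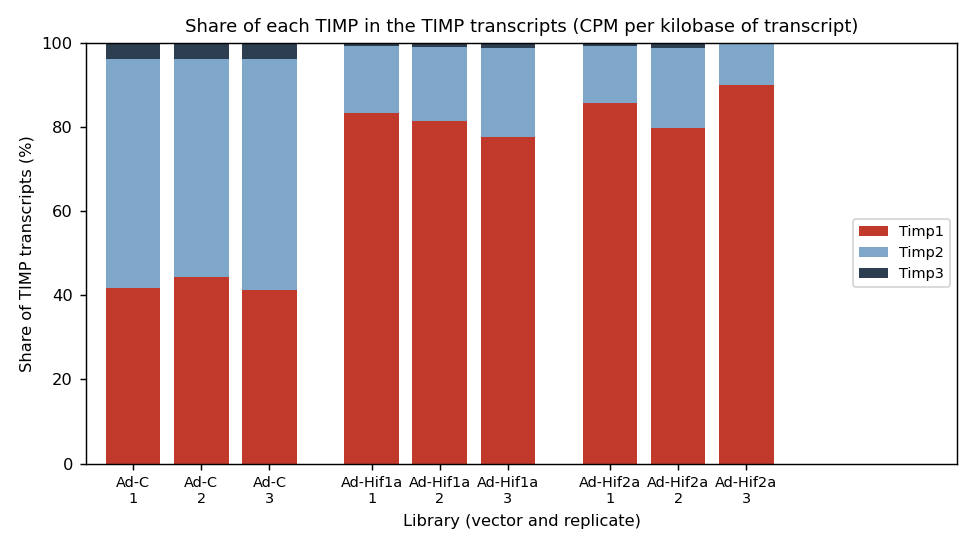
Share in percent of Timp1, Timp2 and Timp3 in the TIMP transcripts of each library, from CPM per kilobase of transcript, with 1 bar per library. Timp1 made up 41.2% to 44.3% of the transcripts in Ad-C and 77.7% to 89.9% in the libraries of the Hif vectors.

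Among the ADAMTS members, Adamts4 and Adamts5 encode the main aggrecan-cleaving enzymes, the aggrecanases. Adamts4 stood at 15.8, 18.8 and 18.0 CPM with Ad-C. Its levels were 43.1, 39.1 and 34.9 CPM with Ad-Hif1a and 42.8, 42.9 and 47.8 CPM with Ad-Hif2a. The lowest library of the Hif vectors was above the highest Ad-C library. Adamts4 rose 2.23-fold with Ad-Hif1a (log2 change 1.16, SE 0.16, adjusted p = 0.00543, edgeR) and 2.54-fold with Ad-Hif2a (log2 change 1.34, SE 0.16, adjusted p = 0.00236). The Ad-Hif2a call held in 18 of 18 settings and the Ad-Hif1a call in 16, being lost without Ad-C replicate 1 (adjusted p = 0.063) or Ad-Hif1a replicate 2 (0.0507).

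Adamts5 stood at 267, 263 and 270 CPM with Ad-C, 287, 333 and 337 CPM with Ad-Hif1a and 289, 258 and 263 CPM with Ad-Hif2a. The Ad-Hif1a libraries were all above Ad-C, while Ad-Hif2a overlapped Ad-C. The log2 change was 0.26 with Ad-Hif1a (95% interval -0.08 to 0.60, adjusted p = 0.309, edgeR) and 0.02 with Ad-Hif2a (-0.32 to 0.36, adjusted p = 0.941). In CPM per kilobase, Adamts5 exceeded Adamts4 in every library, with 24.7 ± 0.316 against 3.997 ± 0.354 in Ad-C and 25.0 ± 1.57 against 10.2 ± 0.646 with Ad-Hif2a (SD, n = 3).

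Adamts1, which encodes a protease of versican and aggrecan, stood at 123, 120 and 137 CPM with Ad-C. It stood at 205, 256 and 295 CPM with Ad-Hif1a and at 227, 252 and 143 CPM with Ad-Hif2a. Every library of the Hif vectors was above Ad-C, although Ad-Hif2a 3 was above the highest Ad-C library by only a few CPM. Adamts1 rose 1.98-fold with Ad-Hif1a (log2 change 0.99, SE 0.25, adjusted p = 0.0451, edgeR). This call was lost in 9 of 18 settings, among them without any 1 of the 9 libraries except Ad-Hif2a 3, with adjusted p up to 0.21. With Ad-Hif2a the log2 change of 0.70 (SE 0.25) did not pass, with adjusted p = 0.0985. Without Ad-Hif2a replicate 3 that change was 1.00 (adjusted p = 0.000262). Adamts1 and Adamts5 are adjacent coding genes on chromosome 16, in an annotation of build GRCm38.

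Adamts9, which encodes another versican-cleaving protease, stood at 22.9, 20.0 and 23.2 CPM with Ad-C. It stood at 11.3, 15.4 and 17.1 CPM with Ad-Hif1a and at 16.0, 19.7 and 8.81 CPM with Ad-Hif2a. All 6 libraries of the Hif vectors were below Ad-C, Ad-Hif2a 2 only just. The log2 change was -0.60 in both comparisons, with SE 0.30 and adjusted p = 0.26 for Ad-Hif1a and 0.206 for Ad-Hif2a by edgeR. It passed the threshold with Ad-Hif1a in 3 of 18 alternative settings and with Ad-Hif2a in 0 of 18, where the log2 change ran from -0.86 to -0.24. Several genes overlap Adamts9 on the opposite strand.

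Adamts12, which encodes a protease of cartilage oligomeric matrix protein, varied most, relative to its mean, within the groups of the Hif vectors. It stood at 25.6, 26.8 and 27.9 CPM with Ad-C, 15.2, 25.2 and 31.4 CPM with Ad-Hif1a and 20.4, 31.0 and 11.4 CPM with Ad-Hif2a. Both Hif vectors overlapped Ad-C on either side. The log2 change was -0.18 (95% interval -1.03 to 0.66) under Ad-Hif1a and -0.40 (-1.25 to 0.46) under Ad-Hif2a, so a change of 2-fold in the lower direction lies within either interval.

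Adamts2, a procollagen N-proteinase, stayed near its Ad-C level. It stood at 205, 195 and 217 CPM with Ad-C, 213, 199 and 210 CPM with Ad-Hif1a and 187, 208 and 208 CPM with Ad-Hif2a. The log2 change was 0.01 with Ad-Hif1a (95% interval -0.30 to 0.33) and -0.03 with Ad-Hif2a (-0.35 to 0.28), and the libraries of all 3 vectors overlapped.

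**Figure D3:**
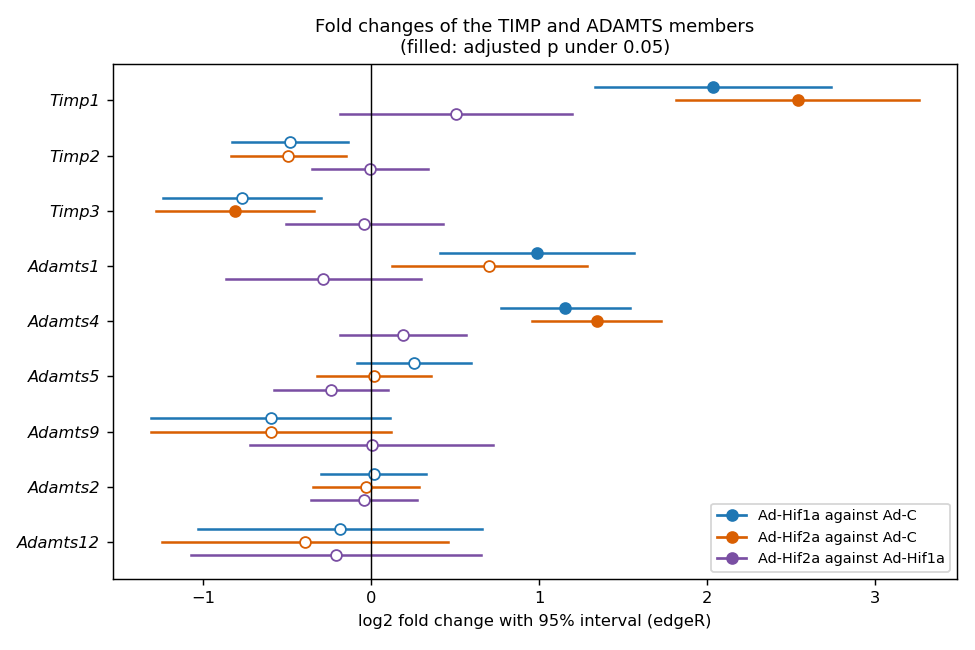
Log2 fold changes of the 9 tested members with 95% intervals from edgeR in the 3 comparisons, filled where the adjusted p was under 0.05. Timp1 had the largest changes, 2.04 and 2.54, Adamts4 followed with 1.16 and 1.34, and no member was called between the Hif vectors.

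In CPM per kilobase, 3 ADAMTS members stood close together in Ad-C, namely Adamts2 with 28.3 ± 1.501, Adamts1 with 25.9 ± 1.83 and Adamts5 with 24.7 ± 0.316 (SD, n = 3), and the ranges of Adamts1 and of its neighbours on either side overlapped. Adamts4 with 3.997 ± 0.354, Adamts12 with 3.12 ± 0.134 and Adamts9 with 2.75 ± 0.217 followed, and the last 2 did not overlap. With Ad-Hif1a, Adamts1 stood first in each library, at 42.0 to 60.3 CPM per kilobase. With Ad-Hif2a it stood first in each library as well, at 29.3 to 51.6, but in Ad-Hif2a 3 Adamts2 was nearly as high at 28.6. The share of Adamts1 in the transcripts of the 6 ADAMTS members was 28.7% to 30.1% with Ad-C, 37.9% to 44.9% under Ad-Hif1a and 30.7% to 43.0% under Ad-Hif2a.

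Ad-Hif2a was also set directly against Ad-Hif1a, to see whether the factors differ. None of the 9 members was called by edgeR, where 0% of all tested genes were called, and no member reached an unadjusted p under 0.05, against 2.35% of all genes tested. DESeq2 called 19 genes in all and none of the members. Hif1a itself, lower with Ad-Hif2a by a log2 difference of -1.75 and without overlap, had an adjusted p of 0.823, so this test called very little. The interval for Timp1 ran from -0.19 to 1.19 around a log2 difference of 0.50, that for Adamts1 from -0.87 to 0.29 around -0.29, and that for Adamts4 from -0.19 to 0.56 around 0.19. Timp2 differed by -0.01 (-0.35 to 0.34) and Timp3 by -0.04 (-0.51 to 0.43). For these 5 members the ranges of the Hif vectors overlapped, and differences as large as the outer bounds of these intervals are not excluded by these libraries. The same held for Adamts5, Adamts9, Adamts2 and Adamts12, whose ranges overlapped too, where 6.27% of all tested genes had ranges that did not overlap.

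The libraries Ad-Hif1a 1 and Ad-Hif2a 3, which held the least of the carried transcript, stood at the same end of their groups in 7 of the 9 tested members. In both of them Timp1, Timp2 and Adamts4 were the highest of the group, and Timp3, Adamts1, Adamts9 and Adamts12 were the lowest. Among all tested genes the same was true of 63.6%. With both libraries left out, a setting chosen after the data were seen, 7 members were called with Ad-Hif1a (4 higher and 3 lower) and 5 with Ad-Hif2a (3 higher and 2 lower), and the genes called among all those tested rose to 4022 and 4173. In that setting Timp2 was lower in both comparisons (adjusted p = 0.0121 and 0.0127), as was Timp3 (0.000453 and 0.00184), and Timp1 rose by 1.99 and 2.16 on the log2 scale. Against Ad-Hif1a, Ad-Hif2a then showed a log2 difference of 0.17 (SE 0.19) in Timp1. The part of these libraries in the main results beyond that was not tested.

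Of the other 13 ADAMTS proteases, 9 were tested, and 1 rose and 2 fell with Ad-Hif1a (11.3% of all tested genes were called), while 1 rose and 3 fell with Ad-Hif2a (15.6%). Adamts7, which like Adamts12 acts on cartilage oligomeric matrix protein, rose from 13.8 ± 0.673 CPM under Ad-C to 28.2 ± 2.34 under Ad-Hif1a and 32.9 ± 7.77 under Ad-Hif2a (SD, n = 3). Its log2 changes were 1.04 (adjusted p = 0.0196, edgeR) and 1.25 (adjusted p = 0.00817). Adamts8 fell from 7.03 ± 1.46 CPM to 1.86 ± 0.405 with Ad-Hif1a and 1.25 ± 0.75 with Ad-Hif2a, a log2 change of -1.92 (adjusted p = 0.027) and -2.55 (adjusted p = 0.00907). Adamts18 had 62 to 89 counts per library with Ad-C and 1 to 7 with either Hif vector, and fell by 4.09 (adjusted p = 0.0069) and 4.01 (adjusted p = 0.00595) on the log2 scale. The ranges of these 3 genes with either Hif vector did not overlap Ad-C. With Ad-Hif1a the calls of Adamts7 and Adamts8 held in 14 of 18 alternative settings each and that of Adamts18 in 15 of 17, and with Ad-Hif2a they held in 15 of 18, 17 of 18 and 17 of 17. Adamts14, a procollagen N-proteinase like Adamts2, had log2 changes of -0.70 with Ad-Hif1a (adjusted p = 0.0565) and -0.76 with Ad-Hif2a (adjusted p = 0.0349), the latter past the threshold, as in 11 of 18 alternative settings (adjusted p up to 0.202). Adamts13, the von Willebrand factor protease, was at 0 in all libraries.

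**Figure D4:**
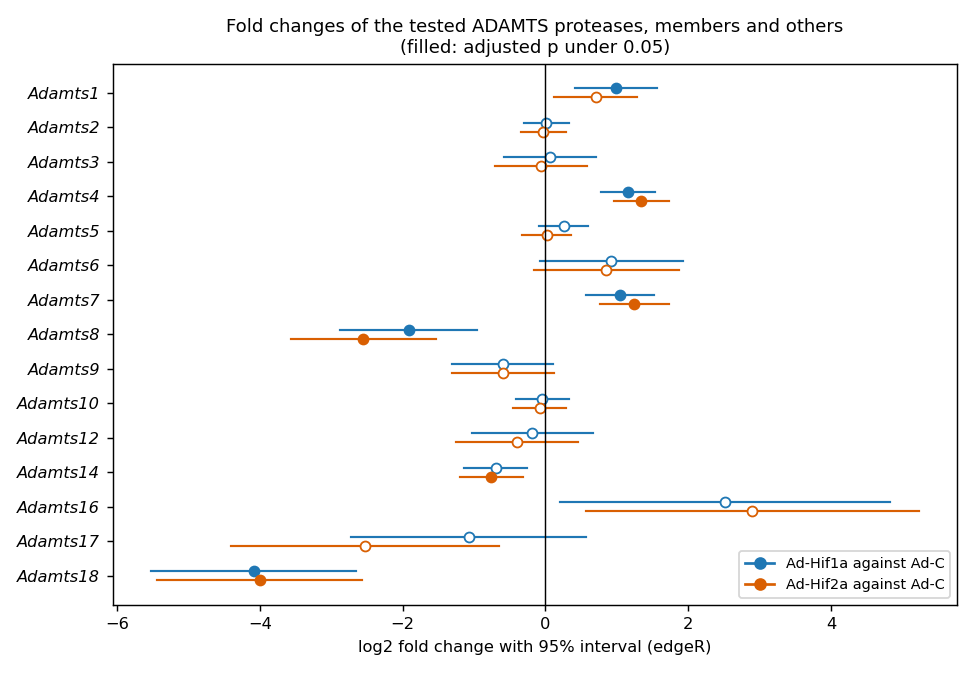
Log2 fold changes with 95% intervals of the 15 tested ADAMTS proteases, members and others, for Ad-Hif1a and Ad-Hif2a against the same Ad-C libraries, filled where the adjusted p was under 0.05. Adamts1, Adamts4 and Adamts7 lay to the right with a filled point in at least 1 comparison, Adamts8, Adamts14 and Adamts18 to the left, and Adamts2, Adamts3 and Adamts10 near 0.

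Of 6 ADAMTS-like genes, papilin included, which lack a catalytic domain, 4 were tested. Adamtsl4 alone was called, falling by 0.58 with Ad-Hif1a (adjusted p = 0.0469, edgeR) and by 0.96 with Ad-Hif2a (adjusted p = 0.0059) on the log2 scale. The Ad-Hif1a call held in 8 of 18 alternative settings (adjusted p up to 0.27) and the Ad-Hif2a call in 16. Adamtsl1, Adamtsl3 and Adamtsl5 were not called in either comparison.

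Matrix metalloproteinases and ADAM proteases were counted together as a list of enzymes beside these inhibitors. The list includes Adam8, Adam9 and Adam19, and inhibition by TIMPs was not tested for any of its genes. Of 24 genes, 22 were tested, and 7 rose and none fell with Ad-Hif1a, beside 6.04% and 5.22% of all tested genes, while 8 rose and 2 fell with Ad-Hif2a, beside 7.87% and 7.72%. In the fit without the replicate term, 8 rose and 2 fell with Ad-Hif1a, and 8 rose and 4 fell with Ad-Hif2a. Mmp3, or stromelysin-1, stood at 18.7 to 24.8 CPM with Ad-C, 1986 to 2667 under Ad-Hif1a and 2591 to 3576 under Ad-Hif2a, a log2 change of 6.82 and 7.24 (adjusted p = 6.26e-05 and 3.8e-05, edgeR). Mmp8, a collagenase, rose by 5.00 and 5.76 on the same scale, from 0.679 ± 0.258 to 21.8 ± 0.778 and 36.8 ± 4.63 CPM (SD, n = 3). Mmp10, or stromelysin-2, was counted at 0 to 0.11 CPM with Ad-C, 4.48 to 5.55 under Ad-Hif1a and 14.5 to 27.6 under Ad-Hif2a. Mmp9, or gelatinase B, stood at 0.107 to 0.552, 1.34 to 3.11 and 4.23 to 6.37 CPM in the same order. The calls of these 4 genes against Ad-C held in every alternative setting in which they were tested. The summed level of these 24 genes was 4912 to 4967 CPM with Ad-C, 9481 to 10350 under Ad-Hif1a and 10880 to 11960 under Ad-Hif2a. Mmp13 and Mmp2, the highest of the list in Ad-C and named after their values were seen, also rose. Mmp13 went from 1796 ± 28.2 CPM to 3125 ± 308 and 3426 ± 586 (adjusted p = 0.0345 and 0.0164, edgeR). Mmp2 went from 1139 ± 27.8 CPM to 2090 ± 25.5 and 2177 ± 217 (adjusted p = 0.0126 and 0.00812). Their calls held in 10 and 12 of 18 alternative settings for Mmp13, and in 13 and 15 for Mmp2. The median log2 change of the tested genes was 0.11 with Ad-Hif1a and 0.18 with Ad-Hif2a, beside 0.01 over all genes.

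Of 10 genes for activation, clearance and cell-surface partners, 2 rose with Ad-Hif1a, where 11.3% of all tested genes were called, and 3 rose and 1 fell with Ad-Hif2a, where 15.6% were. Pcsk5, a proprotein convertase of the family that cleaves ADAMTS propeptides, rose from 4.83 ± 0.215 CPM to 141 ± 24.9 and 185 ± 51.5 CPM (log2 changes 4.87 and 5.25, adjusted p = 0.000262 and 0.000162, edgeR). Efemp1, whose product fibulin-3 binds TIMP3, rose by 1.34 and 1.01 on the log2 scale (adjusted p = 0.0014 and 0.00357). Sdc4, a cell-surface proteoglycan, rose with Ad-Hif2a by 1.33 (adjusted p = 0.0475), and Pcsk6, another convertase, fell with it by 0.82 (adjusted p = 0.0261). The Sdc4 call held in 10 of 18 alternative settings (adjusted p up to 0.231) and the Pcsk6 call in 12 (up to 0.158).

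Of 16 proteoglycans, procollagens and other substrates, 14 were tested, and 1 rose and 1 fell with Ad-Hif1a, while 1 rose and 2 fell with Ad-Hif2a, counts near the 11.3% and 15.6% called over all tested genes. Bgn, which encodes biglycan, rose from 2263 ± 154 CPM to 4525 ± 186 with Ad-Hif1a and 5395 ± 796 with Ad-Hif2a (SD, n = 3), by 1.00 and 1.25 on the log2 scale (adjusted p = 0.00974 and 0.00337, edgeR). Col2a1, which encodes the collagen of cartilage, fell from 119 ± 10.3 CPM to 41.4 ± 0.592 and 35.7 ± 6.56 (adjusted p = 0.00243 and 0.00117). Thbs1, which encodes thrombospondin-1, fell with Ad-Hif2a by 1.52 on the log2 scale (adjusted p = 0.0464), a call that held in 11 of 18 alternative settings (adjusted p up to 0.212). The Bgn calls held in 14 and 17 of 18. Hapln1, which encodes a link protein of aggrecan complexes, was not called. Acan and Vcan, which encode aggrecan and versican, were named after their values were seen and were not called either. Acan stood at only 0.673 to 1.66 CPM with Ad-C. Vcan stood at 157 ± 6.40 CPM with Ad-C, with log2 changes of 1.05 and 0.83 (adjusted p = 0.124 and 0.16, edgeR).

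Markers of other cell types moved with the vectors. The summed level of 8 macrophage markers was 819 to 861 CPM with Ad-C, 280 to 289 under Ad-Hif1a and 277 to 326 under Ad-Hif2a, and 5 of the 8 fell in each comparison, beside 5.22% and 7.72% of all tested genes. Csf1r (150.7 ± 4.69 CPM with Ad-C) fell by 1.74 and 1.79 on the log2 scale (adjusted p = 0.000952 and 0.000672, edgeR), and Cd68 by 1.78 and 1.67. Mrc1, the highest of them in Ad-C at 205 ± 8.84 CPM and named after its values were seen, fell by 3.72 and 4.48 (adjusted p = 0.00107 and 0.000485). Adgre1, at 117 ± 5.85 CPM with Ad-C, had log2 changes of -0.21 and -0.02 with overlapping ranges (adjusted p = 0.571 and 0.945). In bulk RNA, fewer cells of a type and less RNA per cell cannot be told apart. The 6 chondrocyte markers, led in Ad-C by Col2a1 and then Sox9, summed to 190 to 213, 110 to 125 and 80.9 to 97.1 CPM in the same order, and 1 fell with Ad-Hif1a (Col2a1) and 2 with Ad-Hif2a (Col2a1 and Sox9). The 8 skeletal muscle markers, led in Ad-C by Myh1, summed to 65.1 to 81.9, 10.8 to 13.1 and 6.37 to 9.09 CPM, with Myod1 at 0 in all libraries. Of 4 tested, 3 fell and 1 rose in each comparison, the latter Acta1, from 0.715 ± 0.110 CPM to 6.70 ± 1.05 and 4.01 ± 1.24 (log2 changes 3.22 and 2.47, adjusted p = 0.00176 and 0.00396, edgeR). The 6 endothelial markers, led in Ad-C by Kdr, summed to at most 5.19 CPM in any library. Of the 2 tested, neither was called with Ad-Hif1a, while with Ad-Hif2a Kdr fell by 2.35 on the log2 scale (adjusted p = 0.0286, edgeR) and Pecam1, at 0 to 3 counts per library with Ad-C and 13 to 21 with Ad-Hif2a, rose by 3.44 (adjusted p = 0.0162). The 7 smooth muscle and pericyte markers, led by Acta2 (2095 ± 71.8 CPM with Ad-C), summed to 3035 to 3268, 3203 to 4546 and 3139 to 4369 CPM. Log2 changes were below 0 in 4 of the 7 in each comparison. With Ad-Hif1a 0 were called, and with Ad-Hif2a Myh11 fell by 0.95 on the log2 scale (adjusted p = 0.0162, edgeR). The 10 osteoblast markers, led by Col1a1, summed to 41740 to 46350, 37760 to 42210 and 34660 to 39110 CPM. Of these, 3 fell with Ad-Hif1a and 5 with Ad-Hif2a, beside the same 5.22% and 7.72% of all tested genes. Sp7, Alpl and Bglap fell in both, and 0 were called as risen. Log2 changes were above 0 in 3 of the 10, namely Spp1 (0.37 and 0.61), Ibsp (0.52 and 0.73) and Pth1r (0.46 and 0.54). Timp2, Timp3 and Adamts9 were lower in the same 6 libraries as the macrophage, chondrocyte, skeletal muscle and endothelial sums. Of all tested genes, 50.4% and 49.5% had ranges that did not overlap Ad-C. Only 4 of the 8 skeletal muscle and 2 of the 6 endothelial markers had enough counts to be tested. Their sums thus rest on few genes and do not show that such cells were present. The part of cell types in the levels of these members was not tested.

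The nearest patterns to each member were taken as a description over the 9 libraries, by Pearson correlation of log2 CPM. The 9 points fall into Ad-C and the Hif vectors and are not independent of the differences described above, so no test is given. Nearest to Timp1 were Dpep1, Saa1 and Tsc22d1 (r = 0.998 to 0.997). Nearest to Timp2 were Adh7, Scn3a and the macrophage marker Cd68 (r = 0.992 to 0.990), and nearest to Timp3 were Cerk, Cav1 and Gramd4 (r = 0.997 to 0.996). Adamts1 had Kif21a, Igfbp5 and Sema5a nearest (r = 0.990 to 0.989), and Adamts4 had Clmp, Olfml3 and Ccl8 (r = 0.996 to 0.994). For Adamts9 these were Magi2, Spdl1 and Slc38a1 (r = 0.992 to 0.989), and for Adamts12 Tut7, Slc30a7 and Ebf3 (r = 0.990 to 0.989). Adamts2 and Adamts5, which were called in no comparison, had weaker nearest patterns, led by Sf1 (r = 0.903) and Arrdc4 (r = 0.896).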

How the data were processed

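Total RNA of calvarial pre-osteoblasts was sequenced with the CORALL RNA-seq V2 kit, 3 libraries per vector, grouped by their sample titles. The authors deposited raw counts per gene symbol, whole numbers without normalization. The submitters' processing notes name bcl2fastq 2.20.0.422, fastp, STAR, Salmon and build GRCm39; their roles, settings and any use of strand are not given in the sources used here, so reads of overlapping genes may be shared between them.

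The members and gene lists were chosen with earlier results of these data known. The 14413 genes that filterByExpr kept were scaled by TMM (factors 0.957 to 1.03). They were tested in R 4.3.3 by the quasi-likelihood F test of edgeR 4.0.16 in its robust form (limma 3.58.1, statmod 1.5.0), on all 9 libraries with vector and replicate number as terms, the latter because the study names a paired test. The Benjamini-Hochberg adjustment ran over all genes tested, with a threshold of 0.05. Named were all 10 members, up to 4 genes of each other list with the lowest adjusted p in either vector, ADAMTS genes at 0 in every library, the 3 nearest patterns of each tested member (log2 CPM, prior count 2), Hif1a, Epas1, and the highest or absent cell markers. Lengths, overlaps and neighbours came from GENCODE M21 (GRCm38), and windows before gene starts from RefSeq GRCm38.p6, which had none for Adamts4 and Adamts5 in the table used. Levels per kilobase used the principal transcript.

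Alternatives were a fit without the replicate term, DESeq2 1.42.0, other scalings (RLE, upper quartile, none), no filter, a minimum of 10 counts in each library, only the 6 libraries compared, leaving out each library, and, chosen after the data were seen, leaving out Ad-Hif1a 1 and Ad-Hif2a 3 together and lengths from the union of exons. On simulated counts, the fit recovered 23.9% of 2-fold, 76.1% of 4-fold and 92.4% of 8-fold changes for Ad-Hif1a against Ad-C (13829 genes), 26.9%, 70.1% and 92.4% for Ad-Hif2a against Ad-C (13817 genes), and 35.8%, 79.1% and 97.0% between the Hif vectors (13833 genes). The simulated counts were drawn independently around the Ad-C means. They lacked shared deviations such as those of Ad-Hif1a 1 and Ad-Hif2a 3 (r = 0.61), so the recovery rates need not hold for the real libraries. In the real libraries, 0 of 14413 tested genes were called between the Hif vectors. Libraries of 1 group differed beyond counting noise, so none was counted as a duplicate.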

Additional observations from a re-analysis of the deposited data

How the results depend on the processing

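Same-numbered libraries did not deviate together: their deviations from the group means correlated at -0.575 to 0.098 (0 of 9 pairs over 0.1). Deviations within a group sum to 0, and Ad-Hif1a 1 and Ad-Hif2a 3 (r = 0.61) weigh on all pairs, so a weaker pairing could not be seen. Without the replicate block, 5 members were called with Ad-Hif1a and 5 with Ad-Hif2a, in place of 3 and 3, Timp2 and Timp3 being lower in both; the calls among all genes went from 1624 and 2247 to 2379 and 3452, with 2 between the Hif vectors. Without the block the counts of called osteoblast markers with Ad-Hif1a (6 in place of 3) and of substrates with Ad-Hif2a (5 in place of 3) moved as well, as did endothelial markers with Ad-Hif1a (2, from 0) and smooth muscle markers (1, from 0, and 2, from 1). DESeq2 also called 5 and 5, with 2470 of 14413 tested genes called in all for Ad-Hif1a. Only the 6 libraries compared gave 6 with Ad-Hif1a and 2 with Ad-Hif2a, against 4706 and 1705 genes in all. Leaving out 1 library gave 0 to 6 with Ad-Hif1a, 2 to 5 with Ad-Hif2a (5 without Ad-Hif2a replicate 3) and 0 between the Hif vectors. With Ad-Hif1a, 0 members were called without Ad-C replicate 1 (441 of 14727 tested genes called) or Ad-Hif1a replicate 2 (467 of 14755). There was 1 without Ad-C replicate 3 (487 of 14704), and there were 6 without Ad-Hif2a replicate 3 (5330 of 14648). The member count with Ad-Hif1a was thus lowest and highest where the count over all genes was. Leaving out both Ad-Hif1a 1 and Ad-Hif2a 3 gave 7 and 5, beside 4022 of 14559 genes in all for Ad-Hif1a. The cause of these shifts was not tested.

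Over 18 alternatives, 406 of 486 member values kept direction and side of the threshold, 20 lost a call, 25 gained one and 35 changed sign. Between the Hif vectors Adamts9 changed sign in 9 of 18 settings, and the direction of Adamts9, Adamts12 and Timp3 was not settled. No call changed sign. The sign changes fell on values not called in the main fit of the same comparison. For Adamts2 with Ad-Hif1a they were -0.010 with upper-quartile scaling, -0.0011 without scaling and -0.021 with both libraries left out, and -0.033 to 0.041 leaving out 1; for Adamts12 with Ad-Hif1a -0.63 to 0.082 leaving out 1. With Ad-Hif2a they were 0.0095 (both left out; -0.72 to 0.026 leaving out 1) for Adamts12, -0.0044 (upper quartile) and -0.034 (no scaling; -0.076 to 0.059 leaving out 1) for Adamts5, and -0.097 to 0.025 leaving out 1 for Adamts2. Between the Hif vectors they were 0.0017 (DESeq2 and RLE) and 0.0099 (both left out; -0.043 to 0.023 leaving out 1) for Timp2, 0.0097 (both left out; -0.11 to 0.015) for Adamts2, 0.12 (both left out; -0.19 to 0.19) for Timp3, -0.032 (no scaling), -0.011 (no filter) and -0.020 (6 libraries; -0.27 to 0.37) for Adamts9, 0.0296 (both left out; -0.55 to 0.25) for Adamts12, and -0.46 to 0.026 leaving out 1 for Adamts1. Without length correction the Timp1 share was 14.7%, 49.9% and 58.1%; union lengths moved no Timp1 share beyond 1 SD. Of 90 mean levels under other scalings, 88 stayed within 1 SD.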
